A study of Rattus norvegicus with 12 samples.

Results

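The genes described here are the 10 serotonin (5-HT) receptor genes Htr1a, Htr1b, Htr2a, Htr2c, Htr3a, Htr4, Htr5a, Htr5b, Htr6 and Htr7, taken by symbol from a table of read counts for 17494 rat genes. All 10 were in the table and all 10 passed the filter on low counts that 12325 of the genes passed. The counts came from RNA of 12 male Long Evans hooded rats, labeled wild type, each exposed to blast overpressure 3 times at 10 weeks of age and sacrificed 29 weeks later. The 6 blast-boldine rats ate chow with boldine at 500 mg/kg from week 2 after blast, and the 6 blast-controls ate the same chow without it, so that both groups carried the blast exposure and no sham-exposed rat was part of the comparison. Boldine is a plant alkaloid, given here in the food. The labels call the tissue brain, and the methods of the study call it hippocampus. Each rat gave 1 stranded library of total RNA depleted of ribosomal RNA.

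Serotonin reaches the hippocampus along axons of the raphe nuclei in the brainstem, whose cell bodies lie outside the tissue sampled. Its receptors are proteins of the receiving cells, and all but 5-HT3 couple to G proteins. The 5-HT1 and 5-HT5A receptors signal through inhibitory Gi/o proteins and the 5-HT2 receptors through Gq and phospholipase C. The 5-HT4, 5-HT6 and 5-HT7 receptors signal through Gs and cyclic AMP, whereas 5-HT3 is a cation channel. In hippocampus the family is known for tuning the excitability of pyramidal cells and interneurons, memory and the response to stress. The hippocampal RNA addresses whether receptor transcripts differed with boldine among blast-exposed rats.

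The total of counts on genes lay between 10148474 and 40850106 in 11 rats and was 74008 in blast-control rat 6. A total of 3 counts, taken as the smallest detected value, amounted to 47.5 CPM (counts relative to the TMM-scaled size of the library) in rat 6 and to 0.307 CPM or less elsewhere, which covers counting error only. Rat 6 had 4 counts for Htr5b, 2 for Htr1a, 1 for Htr2c and 0 for the other 7 receptors, so that all but Htr5b were under its limit of detection. Values below are therefore given for the other 5 blast-controls, and the fold change and permutation test of each receptor between treatments are given with and without rat 6. Each number ending of the library names was shared by 2 rats. By endings and expression together, the rats were split into 2 sets, rats 1, 7, 9, 20, 32 and 35 (set A) and rats 4, 5, 6, 12, 17 and 19 (set B), with 3 rats of each treatment in each. The labels name no batch. Of the 4 splits that put each ending once in each set with rat numbers rising along the endings, this one explained the most, 94.8%, of principal component 1 of the 11 deeper libraries, of which treatment explained 1.59%. Of 7 markers each of CA1 pyramidal cells and dentate granule cells, 7 and 5 had at least 3 counts in every one of those libraries, with summed CPM between 708 and 1184 and between 324.8 and 615. The same held for 8 of 8 striatum markers (summed CPM between 156 and 219) and 7 of 7 of subiculum and cortex (between 165 and 309). These markers therefore do not settle which region was sampled.

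The receptors spanned a wide range of levels. Expressed as CPM per kilobase of annotated exon, which allows different genes to be compared, Htr1a was the most abundant at 37.0 ± 6.85 (SD, n = 11). The 5-HT1A receptor opens inwardly rectifying potassium channels in pyramidal cells. Htr2c followed at 17.1 ± 10, Htr1b at 13.2 ± 2.71, Htr4 at 10.97 ± 3.65 and Htr5b at 8.71 ± 2.09 CPM per kb. The lower levels were those of Htr5a at 4.48 ± 1.38, Htr2a at 4.42 ± 1.13, Htr7 at 3.32 ± 0.357, Htr3a at 1.88 ± 0.688 and Htr6 at 1.5 ± 0.286 CPM per kb. The mean of Htr1a per kb was 24.7 times that of Htr6.

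Neighbors in this order were compared within rats by an exact two-sided paired permutation test of log2 CPM per kb over 2048 sign assignments, with p adjusted by the Benjamini-Hochberg method over the 9 pairs. Of the 9 pairs, 6 differed at an adjusted p under 0.05. Htr1a exceeded Htr2c in 10 of 11 rats (adjusted exact p = 0.00879), Htr5b exceeded Htr5a in 11 of 11 (adjusted exact p = 0.00439) and Htr7 exceeded Htr3a in 11 of 11 (adjusted exact p = 0.00439). Htr2c and Htr1b (adjusted exact p = 0.633), Htr5a and Htr2a (adjusted exact p = 0.952) and Htr3a and Htr6 (adjusted exact p = 0.163) did not differ beyond the spread between rats. The order belongs to the gene models used, whose exon lengths ran from 1161 bases for Htr1b to 4385 for Htr2c and may not hold the whole transcript. On the scale of CPM without division by length, 5 of the 10 receptors kept their place, and Htr2c came before Htr1a.

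**Figure D1:**
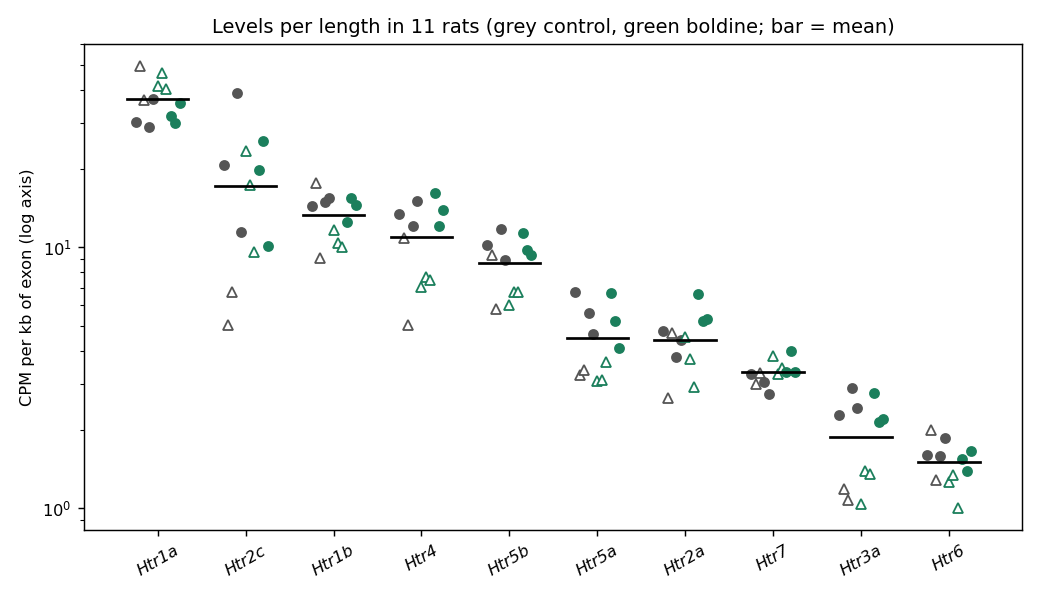
Level of each serotonin receptor gene in 11 rats, as CPM per kilobase of exon on a log axis. Each point is 1 rat (gray, blast-control; green, blast-boldine; filled circles, set A; open triangles, set B), and each bar is the mean, which runs from 37.0 for Htr1a to 1.5 for Htr6.

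No serotonin receptor gene passed the test between blast-boldine rats and blast-controls. In edgeR's quasi-likelihood test on all 12 rats, 0 of the 10 had an adjusted p under 0.05 and 0 had an unadjusted p under 0.05, against 0% and 1.07% of the 12325 genes tested. The smallest unadjusted p was 0.173, of Htr6, and DESeq2 on the same rats also gave 0 of 10 at an unadjusted p under 0.05, against 0.542% of all genes. Without rat 6, edgeR (1.4% of all genes) and DESeq2 (1.78%) again gave 0 of 10 at an unadjusted p under 0.05, and so did edgeR with the set as a covariate (3.85%) and with both changes (5.35%). Log2 fold changes of blast-boldine over blast-control were positive for 4 and negative for 6 receptors, between -0.27 and 0.23, with a median of -0.084 beside a median of 0.0046 over all genes. For 9 of the 10 receptors the 95% interval lay within a doubling or halving (log2 fold changes of -1 to 1), and Htr2c was the exception. The treatments, without rat 6, overlapped in CPM for each of the 10 receptors, where 0.146% of all genes did not overlap. Differences inside these intervals were not excluded by this fit, which had 6 rats per group and no term for the set. Since the tissue was sampled in bulk, fewer cells that express a receptor and less RNA per cell cannot be told apart.

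**Figure D2:**
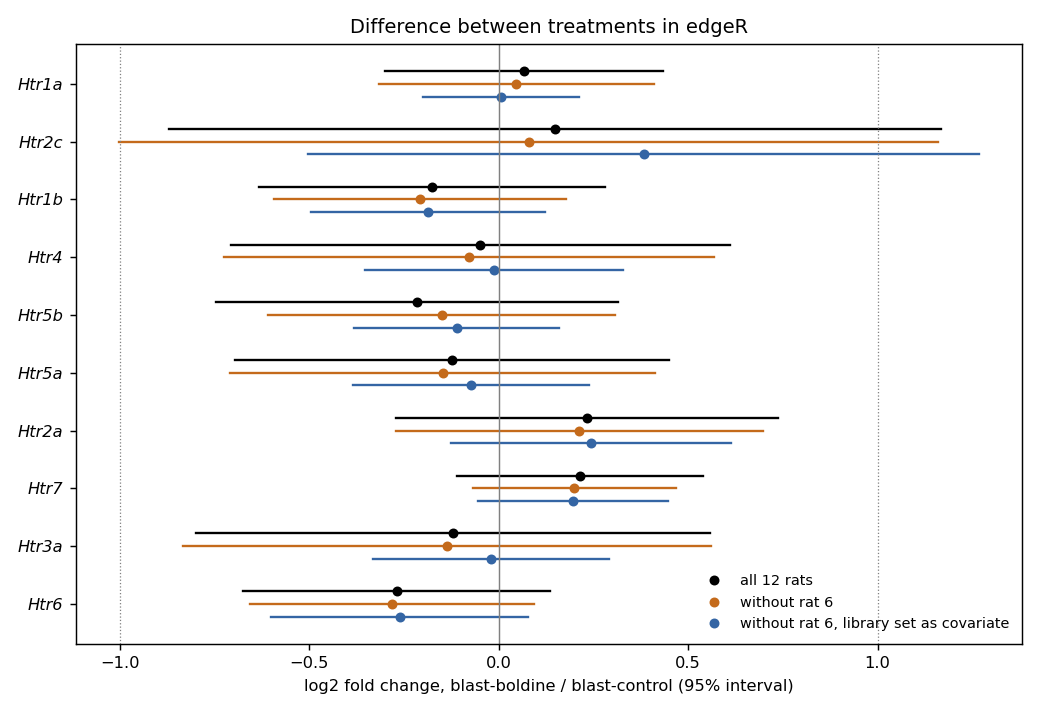
Log2 fold change of each receptor gene, blast-boldine over blast-control, with its 95% interval in edgeR's quasi-likelihood fit for all 12 rats (black), without rat 6 (orange) and without rat 6 with the set as a covariate (blue). Every interval holds 0, dotted lines mark log2 fold changes of -1 and 1, and the Htr2c intervals are the widest.

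Among the Gi/o-coupled receptors, Htr1a is a single exon on chromosome 2, from 36694174 to 36695442 in the build mRatBN7.2, which all positions here refer to. It measured between 38.0 and 59.2 CPM with a median of 48.1 in the 6 blast-boldine rats. In blast-controls 1, 4, 5, 7 and 9 it measured 38.3, 62.7, 46.3, 36.7 and 46.9 CPM. The groups overlapped over nearly their whole range, and the highest value was that of blast-control rat 4. The log2 fold change was 0.067 (95% interval -0.30 to 0.43, adjusted p = 1.0 in edgeR) and 0.047 without rat 6, and the exact permutation p of mean log2 CPM was 0.418 over 12 rats and 0.732 without rat 6.

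Htr1b encodes the receptor that acts on axon terminals to lower transmitter release, and lies on chromosome 8 from 82532254 to 82533414 as a single exon. It measured between 11.6 and 17.9 CPM with a median of 14 in blast-boldine rats, and 16.7, 20.4, 10.5, 17.3 and 17.8 CPM in blast-controls 1, 4, 5, 7 and 9. The highest value was that of blast-control rat 4 and the lowest that of blast-control rat 5. The log2 fold change was -0.18 (95% interval -0.63 to 0.28, adjusted p = 1.0 in edgeR) and -0.21 without rat 6, with an exact permutation p of 0.842 over 12 rats and 0.32 without rat 6. Over 12 rats, where rat 6 entered with 0 counts, the permuted difference in mean log2 CPM was 0.99, opposite in sign.

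Htr5a (chromosome 4, 7444969 to 7454651) and Htr5b (chromosome 13, 32686911 to 32699835) encode the 5-HT5 receptors, the less studied branch of the family, of which the second is known as a receptor in rodents and not in humans. Htr5a measured 8.35 ± 2.72 CPM with boldine (SD, n = 6) against 9.17 ± 2.90 CPM without it (SD, n = 5). Htr5b measured 18.4 ± 4.71 CPM with boldine (SD, n = 6) against 20.4 ± 4.85 CPM without it (SD, n = 5), so that for both genes the groups differed by less than 1 SD. Their log2 fold changes were -0.12 (95% interval -0.70 to 0.45) and -0.22 (95% interval -0.75 to 0.31), each with an adjusted p of 1.0 in edgeR, and -0.15 for both without rat 6. Exact permutation p was 0.693 over 12 rats and 0.619 without rat 6 for Htr5a, and 0.281 and 0.563 for Htr5b. For Htr5a over 12 rats, where rat 6 entered with 0 counts, the permuted difference in mean log2 CPM was 0.90, opposite in sign.

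Of the Gq-coupled receptors, Htr2a, the gene of the 5-HT2A receptor through which many hallucinogens act, lies on chromosome 15 from 49951196 to 50019257 with 3 exons. In the blast-boldine rats 12, 17 and 19 of set B it measured 7.11, 5.85 and 4.54 CPM, and in rats 20, 32 and 35 of set A it measured 10.4, 8.17 and 8.31 CPM. Blast-controls 1, 4, 5, 7 and 9 measured 7.44, 4.15, 7.37, 5.92 and 6.92 CPM. The 3 blast-boldine rats of set A were thus above every blast-control rat, whereas those of set B lay within the range of blast-controls. The mean was 7.39 ± 2.05 CPM (SD, n = 6) against 6.36 ± 1.38 CPM (SD, n = 5), and the counts behind it were few, from 42 to 339 in a deeper library. The log2 fold change was 0.23 (95% interval -0.27 to 0.74, adjusted p = 1.0 in edgeR) and 0.21 without rat 6, with an exact permutation p of 0.201 over 12 rats and 0.403 without rat 6. Within sets, the difference in mean log2 CPM, boldine over control, was 0.40 in set A and 0.051 in set B. When 1 rat at a time was left out, the log2 fold change stayed between 0.11 and 0.34.

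Htr2c lies on chromosome X from 110641153 to 110870288 with 6 exons. Its receptor is found on neurons and, at high density, on the epithelium of the choroid plexus, the tissue in the ventricles that makes cerebrospinal fluid. It was the most variable of the receptors, with a coefficient of variation over 11 rats of 58.4% where counting error alone gives 3.81%. In blast-boldine rats 12, 17, 19, 20, 32 and 35 it measured 102, 75.9, 42.1, 86.9, 112 and 44.1 CPM. In blast-controls 1, 4, 5, 7 and 9 it measured 90.9, 22, 29.4, 171 and 49.9 CPM. Blast-controls held both ends of the range, from rat 4 to rat 7, with the blast-boldine rats between them.

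The log2 fold change of Htr2c was 0.15 (95% interval -0.87 to 1.17, adjusted p = 1.0 in edgeR), with bounds of 0.547-fold and 2.25-fold. It was 0.079 without rat 6, and the exact permutation p was 0.268 over 12 rats and 0.511 without rat 6. The difference in mean log2 CPM was -0.28 in set A and 1.43 in set B, where 3 rats were compared with 2. The fold change rested on single blast-controls, with a log2 value of 0.73 when rat 7 was left out (unadjusted p = 0.0916, adjusted p = 1.0 in edgeR) and -0.055 when rat 4 was.

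Markers of choroid plexus moved with Htr2c. Ttr, the gene of transthyretin and the most abundant of 10 choroid plexus markers, measured 893, 645 and 791 CPM in blast-boldine rats 12, 17 and 32 and 494 and 880.5 CPM in blast-controls 1 and 7. In the other 6 deeper libraries it measured between 4.39 CPM in rat 19 and 38.9 CPM in rat 35. The summed CPM of the 10 markers ran from 11.7 to 1665 in blast-boldine rats and from 16.2 to 1511 in blast-controls, and 0 of the 9 markers tested had an unadjusted p under 0.05 between treatments. The 4 libraries with the most Htr2c were all among the 5 with the most Ttr, and the other of these 5, rat 17, had less Htr2c than rat 20. Rat 20, with 17 CPM of Ttr, still measured 86.9 CPM of Htr2c. With the set and the log2 summed level of these markers as covariates, a fit on the 11 deeper libraries added after the data were seen, the standard error of the Htr2c log2 fold change was 0.22, against 0.41 with the set alone, and the log2 fold change was 0.24 (95% interval -0.24 to 0.72, adjusted p = 0.905 in edgeR). Whether the choroid plexus or the neurons of these libraries gave the Htr2c reads was not tested.

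**Figure D3:**
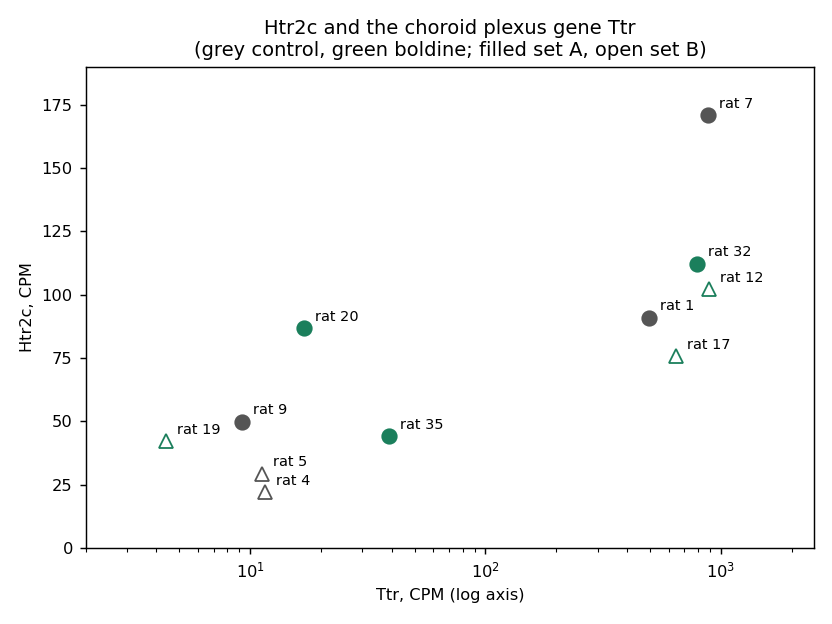
Htr2c (vertical axis, CPM) against the choroid plexus gene Ttr (horizontal axis, CPM, log scale) in 11 rats, gray for blast-control and green for blast-boldine, filled circles for set A and open triangles for set B. Rats 1, 7, 12, 17 and 32 lie to the right with Ttr between 494 and 893 CPM and Htr2c between 75.9 and 171 CPM, and both treatments are found on each side.

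The Gs-coupled receptors were Htr4, Htr6 and Htr7. Htr7 lies on chromosome 1 from 233638046 to 233760444 with 3 exons, and its receptor is linked to circadian phase, sleep and hippocampal plasticity. In blast-boldine rats 12, 17, 19, 20, 32 and 35 it measured 5.72, 4.86, 5.16, 4.96, 5.97 and 4.98 CPM. In blast-controls 1, 4, 5, 7 and 9 it measured 4.89, 4.44, 4.91, 4.56 and 4.09 CPM. All 6 blast-boldine rats were above the blast-control median and 5 were above every blast-control rat, places for which no share over all genes was taken. The means were 5.27 ± 0.460 CPM (SD, n = 6) and 4.58 ± 0.345 CPM (SD, n = 5). The coefficient of variation of Htr7 over the 11 rats, 10.8%, was no larger than the 11.7% that counting error alone gives for its 45 to 223 counts.

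The exact permutation p of Htr7 was 0.013 without rat 6 and 0.00649 over 12 rats, where rat 6 entered with 0 counts. Without rat 6, 1.96% of the 12325 genes had an exact permutation p under 0.05, and 2.28% had it over 12 rats. Adjusted over all genes without rat 6, the exact permutation p of Htr7 was 1.0. In edgeR the log2 fold change was 0.21 (95% interval -0.11 to 0.54, unadjusted p = 0.177, adjusted p = 1.0), and without rat 6 it was 0.20 with an unadjusted p of 0.13. The difference in mean log2 CPM was 0.23 in set A and 0.16 in set B. Htr7 therefore had the smallest exact permutation p of the 10 receptors, at a difference that did not pass edgeR's test across all genes. In edgeR, the unadjusted p of Htr6 was slightly smaller, at 0.173 on 12 rats and 0.125 without rat 6.

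Htr6, whose receptor is nearly confined to the brain, lies on chromosome 5 from 151296662 to 151311912. It measured between 1.92 and 3.18 CPM with a median of 2.62 in blast-boldine rats, and 3.07, 3.85, 2.46, 3.04 and 3.59 CPM in blast-controls 1, 4, 5, 7 and 9. The blast-boldine values were above the blast-control median in 1 rat and under every blast-control rat in 2. The log2 fold change was -0.27 (95% interval -0.67 to 0.14, adjusted p = 1.0 in edgeR) and -0.28 without rat 6, and the exact permutation p was 0.95 over 12 rats and 0.104 without rat 6. Over 12 rats, where rat 6 entered with 0 counts, the permuted difference in mean log2 CPM was 0.52, opposite in sign. Its counts, 24 to 140 per deeper library, give a counting error of 15.5%, close to its coefficient of variation of 19.1%.

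Htr4 (chromosome 18, 55783265 to 55908475) encodes a receptor that promotes acetylcholine release and memory. It measured 13.5 ± 4.84 CPM with boldine (SD, n = 6) against 14.2 ± 4.81 CPM without it (SD, n = 5), and its log2 fold change was -0.048 (95% interval -0.71 to 0.61, adjusted p = 1.0 in edgeR). The sign of this value was not stable, since it turned positive in 6 of 21 alternative settings. Htr3a, on chromosome 8 from 49242020 to 49254389, encodes the obligatory subunit of the 5-HT3 channel and marks interneurons derived from the caudal ganglionic eminence. It measured 3.62 ± 1.3 CPM with boldine (SD, n = 6) against 3.94 ± 1.60 CPM without it (SD, n = 5), and its log2 fold change was -0.12 (95% interval -0.80 to 0.56, adjusted p = 1.0 in edgeR). Without rat 6, the log2 fold changes were -0.079 for Htr4 and -0.14 for Htr3a. The exact permutation p was 0.576 over 12 rats and 0.853 without rat 6 for Htr4, and 0.595 and 0.814 for Htr3a. Over 12 rats, where rat 6 entered with 0 counts, the permuted differences were 1.08 and 0.74, opposite in sign to the log2 fold changes. No exon of any of the 10 receptors shared a base with another gene of the table on either strand.

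**Figure D4:**
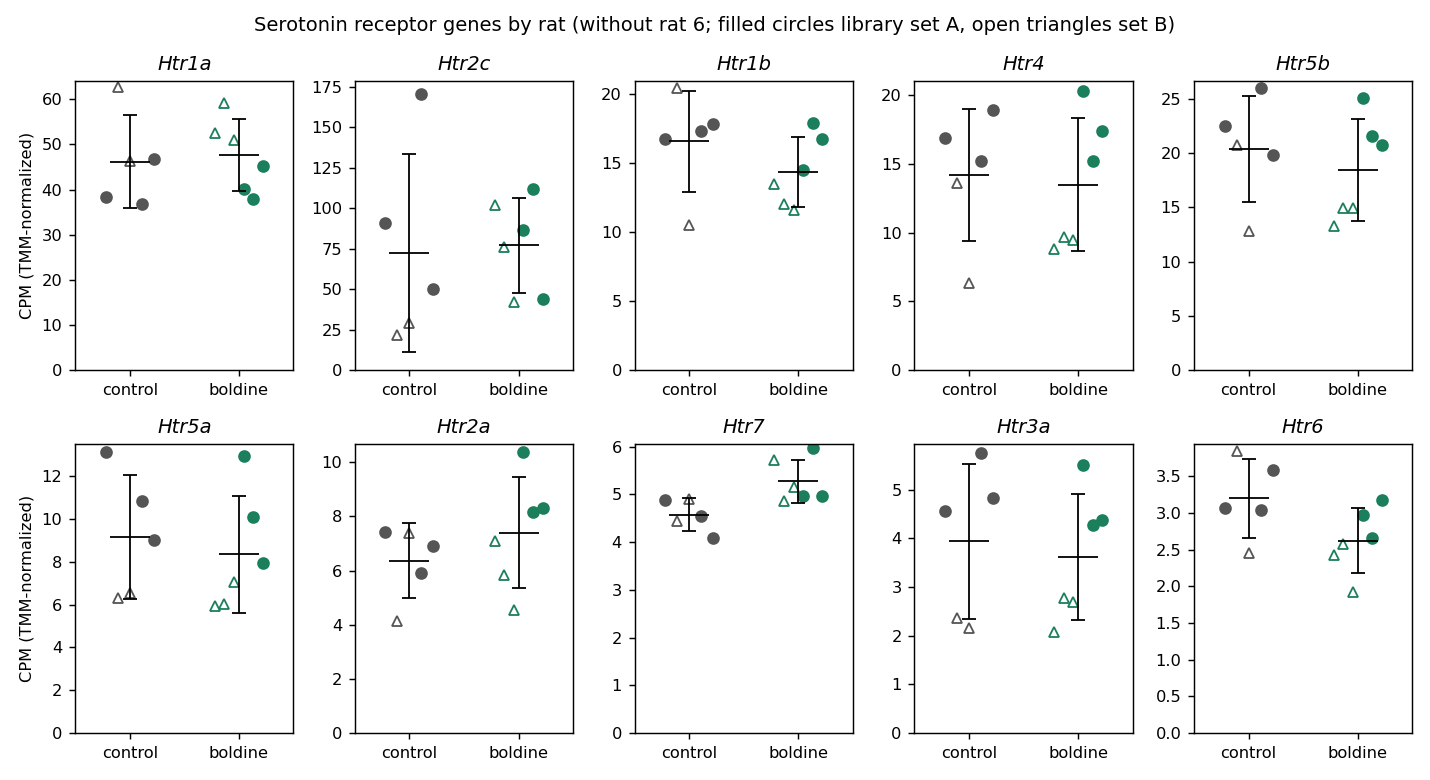
Normalized CPM of each receptor gene in 11 rats by treatment (gray, blast-control; green, blast-boldine; filled circles, set A; open triangles, set B), with bars for the mean and SD of each group (n = 5 and 6) and vertical axes that start at 0. Treatments overlap in every panel, with 5 of 6 blast-boldine rats above all blast-controls for Htr7, while Htr3a, Htr4 and Htr5a separate by set.

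Several receptors differed more between the sets than between the treatments. Htr3a measured between 4.27 and 5.76 CPM in the 6 rats of set A and between 2.08 and 2.78 CPM in the 5 deeper libraries of set B. Htr4 measured between 15.2 and 20.3 CPM and between 6.35 and 13.6 CPM, and Htr5a between 7.96 and 13.1 CPM and between 5.95 and 7.08 CPM. These 3 receptors did not overlap between the sets, where 49.1% of all genes tested did not overlap either. The fitted log2 difference of set B over set A was negative for 8 of the 10 receptors, from -1.02 for Htr3a to -0.21 for Htr6, while it was 0.41 for Htr1a and 0.011 for Htr7. Over all genes, the median of that difference was -0.015 and the median of its size was 0.47. Since the split was chosen on these libraries, the set values are a description and carry no test. Within sets, the difference between treatments had the same sign in both for 8 of the 10 receptors, and the 2 that turned were Htr2c and Htr3a. Some of these signs rest on differences near 0, as in set B for Htr1a (0.0077) and Htr4 (0.0039), where 3 rats were compared with 2. Without a share over all genes beside it, the count of signs is a description only. Blast-control rat 4 was the highest of the 5 deeper libraries of set B for 5 receptors, Htr1a, Htr1b, Htr4, Htr5b and Htr6. The same rat was the lowest of them for Htr2a, Htr2c and Htr7, and lay between the others for Htr3a and Htr5a. No share over all genes was taken for these places, which are a description only.

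Other genes of the serotonin system were read from 5 lists of 52 genes, of which 44 passed the filter. Adjusted p was under 0.05 for 0 of the 44, and unadjusted p for 1, S100a10, against 1.07% of all genes. It was higher in blast-boldine rats, as were 0.552% of all genes at that threshold. At these shares, a single call among the 44 does not set S100a10 apart. S100a10 encodes p11, an adaptor that binds the 5-HT1B and 5-HT4 receptors and brings them to the cell surface. It measured between 12.9 and 18.6 CPM with a median of 14.1 in blast-boldine rats and between 8.79 and 13 CPM with a median of 12.4 in the 5 blast-controls. All 6 blast-boldine rats lay above the blast-control median. The log2 fold change was 0.33 (SE 0.15, unadjusted p = 0.0478, adjusted p = 1.0 in edgeR), with an exact permutation p of 0.00866 without rat 6. S100a10 was named for its edgeR p, so the permutation p and the places above, from the same counts, add no separate support. Without rat 6, 1.96% of the 12325 genes had an exact permutation p under 0.05, and 0 genes had it after adjustment. In edgeR, the unadjusted p of S100a10 was 0.012 without rat 6 and with the set as a covariate. In DESeq2 it was 0.0977 on 12 rats and 0.0214 without rat 6. With 1 rat at a time left out of edgeR, it ran from 0.0359 without rat 6 to 0.125 without rat 4, and it was above 0.05 in 10 of the 12 such fits, the exceptions being those without rat 6 and without blast-boldine rat 19.

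Of the 4 other receptor genes, Htr1f passed the filter, with 2.05 ± 0.447 CPM per kb (SD, n = 11), between Htr3a and Htr7 in level, and a log2 fold change of -0.15 (adjusted p = 1.0 in edgeR). Htr1d, Htr2b and Htr3b had 51, 19 and 3 counts over all 12 libraries and were not tested. Htr3b, the partner subunit of Htr3a in the 5-HT3 channel, thus reached 3 counts in no library.

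Of 5 markers of raphe neurons, 2, Tph2 and Slc22a3, had at least 3 counts in every one of the 11 deeper libraries. Slc6a4, the serotonin transporter, had between 0 and 3 counts per library, and Fev, the transcription factor of raphe neurons, had between 0 and 2. Tph2, the rate-limiting enzyme of serotonin synthesis in neurons, had between 14 and 114 counts in each of the 11 deeper libraries, at 1.97 ± 0.667 CPM with boldine (SD, n = 6) against 2.57 ± 0.724 CPM without it (SD, n = 5) (log2 fold change -0.38, SE 0.28, adjusted p = 1.0 in edgeR). Slc18a2, the vesicular monoamine transporter, measured 0.958 ± 0.574 and 0.883 ± 0.348 CPM. The monoamine oxidases, which break serotonin down, were higher, with Maoa at 92.5 ± 9.14 CPM with boldine (SD, n = 6) against 81.8 ± 12.1 CPM without it (SD, n = 5), and Maob at 102 ± 25.7 and 105 ± 24.1 CPM. Their log2 fold changes were 0.21 (SE 0.14) and 0.055 (SE 0.30), each with an adjusted p of 1.0 in edgeR. For Maob the value was -0.049 without rat 6, in which it had 0 counts.

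Over 13 lists of cell type and region markers, 1 gene had an unadjusted p under 0.05 between treatments, against 1.07% of all genes. At that share, a single call among the markers of 13 lists does not set a gene apart. The gene was Slc17a6, a vesicular glutamate transporter in the list of subiculum and cortex, named here after its values were seen. It measured 21.6 ± 6.64 CPM with boldine (SD, n = 6) against 32.7 ± 9.41 CPM without it (SD, n = 5), with 0 of 6 blast-boldine rats above the blast-control median (log2 fold change -0.64, SE 0.27, unadjusted p = 0.0337, adjusted p = 1.0 in edgeR). Its exact permutation p without rat 6 was 0.0866, and its part in the receptor values was not tested.

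Downstream of the receptors, 0 of 9 G protein genes and 0 of 17 effector genes had an unadjusted p under 0.05, against 1.07% of all genes. Log2 fold changes ran from -0.13 to 0.20 for the G proteins (median -0.043) and from -0.23 to 0.14 for the effectors (median -0.044). The gene with the smallest p among the G proteins was Gnai1, an inhibitory alpha subunit, at 226 ± 23.2 CPM with boldine (SD, n = 6) against 201 ± 20.6 CPM without it (SD, n = 5), and a log2 fold change of 0.20 (SE 0.12, unadjusted p = 0.132 in edgeR). Among the effectors it was Rapgef3, a guanine nucleotide exchange factor that cyclic AMP activates, at 49.5 ± 3.52 and 53.3 ± 3.15 CPM, a log2 fold change of -0.16 (SE 0.13, unadjusted p = 0.251 in edgeR).

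Genes whose profile over the 11 rats was most like that of a receptor were ranked by Pearson's r of log2 CPM after centering within sets, among 10452 or 10453 genes with a mean of at least 5 CPM. These values describe 11 libraries that share depth and dissection differences, and high values arise readily when so many genes are ranked. For Htr2c the closest were Insr (r = 0.964) and Mospd2 (r = 0.949), and for Htr2a they were Tpm1 (r = 0.963) and Ubxn1 (r = 0.931). Htr6 was closest to Bcl11b (r = 0.964) and Cacna1h (r = 0.946), Htr1b to Ampd2 (r = 0.968) and Pptc7 (r = 0.962), and Htr5b to Selplg (r = 0.961) and Fam160b2 (r = 0.928). The closest genes were Coq10a (r = 0.948) and Kcnip2 (r = 0.92) for Htr1a, Ap5b1 (r = 0.943) and RT1-DMb (r = 0.942) for Htr4, and Egfl6 (r = 0.935) and Tmod3 (r = 0.862) for Htr7. They were Pcca (r = 0.915) and Chdh (r = 0.893) for Htr5a and, with the lowest r of the 10, Eci2 (r = 0.854) and Ppp1r14b (r = 0.834) for Htr3a.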

How the data were processed

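The authors screened, deduplicated and trimmed paired reads with HTStream, mapped the remainder with STAR 2.7.11b to the rat build mRatBN7.2 (rn7) and counted reads on RefSeq exons by gene name and strand with featureCounts of Subread 2.0.1 (tools per the submitters' processing notes and the methods of the study). What was deposited is the raw read count per gene and rat, not normalized, with each exon length. Reads with several alignments and short gene models can lower a count, and removal of duplicates is part of the values. Here the counts were tested with edgeR 4.0.16 (quasi-likelihood, TMM, filterByExpr at 10 counts, two-sided, Benjamini-Hochberg over 12325 genes) in R 4.3.3, tested on simulated data. Standard errors came from the Fisher information of the fit times the quasi-dispersion. Log2 CPM used a prior count of 2. Exact two-sided permutation tests (924 assignments, 462 without rat 6, smallest p 0.00216 and 0.00433) used scipy 1.17.1. DESeq2 1.42.0, limma-voom 3.58.1, other size factors, no filter, the library set and leaving out each rat were alternatives. The receptors and gene lists were chosen with earlier results of these data known. All receptors were named, and, of each serotonin pathway list, genes with an unadjusted p under 0.05 or else the smallest p, the serotonin source genes, up to 3 markers and the 2 most alike genes. Rats are separate animals.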

Additional observations from a re-analysis of the deposited data

Results flagged for a closer look

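The groups of values examined were 20 (10 receptors in 2 treatments, rats with at least 3 counts). Of these, 1 held a rat far from the rest of its group. Htr5b measured 63.4 CPM in blast-control rat 6, from 4 counts, where the nearest blast-control rat measured 26.0 CPM, a gap of 0.739 of the range of the group against a critical value of 0.625. In that library 1 count amounts to 15.8 CPM, and the 3 counts required for entry amount to 47.5 CPM. Any Htr5b value of rat 6 that entered was thus above the other blast-controls. For this reason the flag was not weighed against a chance rate of 1 in 20.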

How the results depend on the processing

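Over 21 alternatives, 0 of the 10 receptors had an adjusted p under 0.05 (smallest 0.894 in edgeR) or an unadjusted p under 0.05 in any, and 199 of 210 log2 fold changes kept their sign. Those that turned were near 0. Htr4 turned to 0.013 with the set and choroid plexus level as covariates, and leaving out each rat in turn gave -0.22 (without rat 5) to 0.074 (without 9) for Htr4, -0.00799 (17) to 0.20 (4) for Htr1a, -0.055 (4) to 0.73 (7) for Htr2c, -0.28 (20) to 0.058 (7) for Htr3a and -0.29 (20) to 0.048 (1) for Htr5a. The range was -0.29 (5) to -0.089 (4) for Htr1b, -0.34 (5) to -0.14 (12) for Htr5b, 0.11 (20) to 0.34 (19) for Htr2a, -0.34 (5) to -0.20 (19) for Htr6 and 0.17 (32) to 0.24 (1) for Htr7, each with its sign kept. The differences in mean log2 CPM of the permutation test turned negative without rat 6, in which these genes had 0 counts, for Htr1b (-0.19), Htr3a (-0.092), Htr4 (-0.059), Htr5a (-0.13) and Htr6 (-0.28). The order of levels kept 8 of 10 places with rat 6, 10 of 10 with RLE size factors and 5 of 10 without division by length. The number of pathway genes with an unadjusted p under 0.05 was 1 in edgeR and 0 in DESeq2 on 12 rats (1 on 11), in limma-voom, with RLE or upper quartile factors and with no filter. It was 2 (S100a10 and Adcy1) without rat 6 with the set as a covariate, with or without the choroid plexus level, and 0 to 1 when each rat was left out in turn, 1 without rat 6 or rat 19. The cause of these differences was not tested. No paired analysis was possible because the treatments share no rat number. Depth limits Htr3a, Htr6 and Htr7 most.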
